A study of Arabidopsis thaliana with 4 samples.

Results

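APS3 (AT4G14680), APS4 (AT5G43780) and SIR (AT5G04590) encode plant enzymes that bring sulphate into organic form, and their transcripts were read in Arabidopsis thaliana rosette leaves after a major nutrient was withheld. The members are the genes of the sulphate activation and reduction steps that have a probe set named for 1 gene in the probe annotation. They are 3 of 3592 genes named on the array, each with 1 such probe set among the 8247 analysed, of which 3794 name a single gene. All 3 lay above the detection floor on each of the 4 arrays, and none differed 2-fold between any 2 solutions. The lowest of their 12 signals, APS4 without potassium, was 2.58 times the floor.

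Sulphate taken up by the plant is chemically inert and must be activated before it can be used. ATP sulphurylases, the family of APS3 and APS4, join it to ATP to give adenosine phosphosulphate (APS). APS reductases turn this into sulphite, and SIR, the ferredoxin-dependent sulphite reductase of plastids, reduces sulphite to sulphide, which is built into cysteine and from there into methionine and glutathione. The pathway is known to be held back by abundant sulphate and thiols and to be raised when sulphur is short, most clearly at the sulphate transporters and APS reductases. The microRNA miR395, which accumulates in sulphate-starved Arabidopsis, targets transcripts of APS1, APS3 and APS4.

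Ecotype Col-5 plants were grown on agar with 1% sucrose until day 21, then kept in a hydroponic system under constant light at 24 °C, and sampled 28 h after the change of solution, per the labels. A day length of 16 h and a humidity of 80% are also recorded, the same for all 4 arrays. The 4 arrays stand for 1 solution each: full nutrients, no nitrate, no phosphate and no potassium. The number of plants behind each array is not given in the sources used here. In whole leaves, fewer cells of a type and less RNA per cell cannot be told apart.

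The solutions differed in sulphate as well as in the nutrient withheld. The sulphate salts listed for the full solution (0.75 mM magnesium sulphate, with manganese, zinc and copper sulphates at 0.01, 0.001 and 0.003 mM) sum to 0.764 mM. The labels give 4 mM extra calcium sulphate for the nitrate-free solution and 0.125 mM extra potassium sulphate for the phosphate-free one. In the potassium-free solution KH2PO4 and KOH were left out and 0.27 mM calcium dihydrogen phosphate was put in, with no extra sulphate; the phosphate-free solution lacked KH2PO4. If every solution kept the listed base salts, sulphate was 0.764 mM in the full and potassium-free solutions, 0.889 mM in the phosphate-free and 4.76 mM in the nitrate-free one. The last is 6.24 times the full solution, and none of the 4 is a sulphate-free medium. The labels describe the nitrate-free solution as lacking calcium nitrate but name no nitrate salt among those of the full one, which leaves uncertain how much nitrate the reference plants had.

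Because each solution has 1 array, the values have no replicate spread and differences could not be tested. As a measure of scatter between probe sets, the log2 ratios of different probe sets for the same gene spread over a median of 0.27 for nitrate, 0.24 for phosphate and 0.30 for potassium against the full solution (71, 69 and 69 genes). The 90th percentile of that spread was 0.50, 0.56 and 0.57. In what follows the same-gene scatter is the median, and none of the 18 ratios of the members between 2 arrays exceeded the 90th percentile of its comparison. This scatter is between probe sets read on the same arrays and pools genes of all signals above the floor. It does not include variation between arrays or between plants. The full-nutrient array had 312 masked cells per the labels and the others 0. Of 11 leaf markers 6 genes were measured, and their summed signals were 30581 with full nutrients, 31914 without nitrate, 25571 without phosphate and 17456 without potassium. Of 7 root markers 1 was measured, BGLU21, at 1.7, 0.8, 5.3 and 377.2 on the arrays in the same order. The measured flower marker, 1 of 5, lay below the floor of 25.04 on all 4.

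APS3 transcript was the steadiest of the 3. Its probe set had signals of 448.8 with full nutrients, 469.6 without nitrate, 463.4 without phosphate and 449.3 without potassium. The highest of these was 1.05 times the lowest, and the potassium and full-nutrient arrays were nearly equal. The range over the arrays, 0.065 on the log2 scale, is less than the scatter between probe sets of the same gene, so the order of the arrays cannot be read for APS3.

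APS4, which encodes another ATP sulphurylase, was brightest without nitrate. Its probe set had signals of 76.2 with full nutrients, 91.2 without nitrate, 66.2 without phosphate and 64.6 without potassium. The nitrate array stood above the full-nutrient array, and the phosphate and potassium arrays lay below it, close to each other. From highest to lowest the range was 1.41-fold, or 0.50 on the log2 scale.

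SIR had the reverse order of arrays. Its probe set had signals of 435.7 with full nutrients, 400.7 without nitrate, 482.2 without phosphate and 547.2 without potassium. The potassium array was highest and the nitrate array lowest, 1.37-fold apart, or 0.45 on the log2 scale. Neighbouring arrays in the order of SIR and in that of APS4 each differed by less than the scatter between probe sets of the same gene, and the ends of both orders differed by more.

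**Figure D1:**
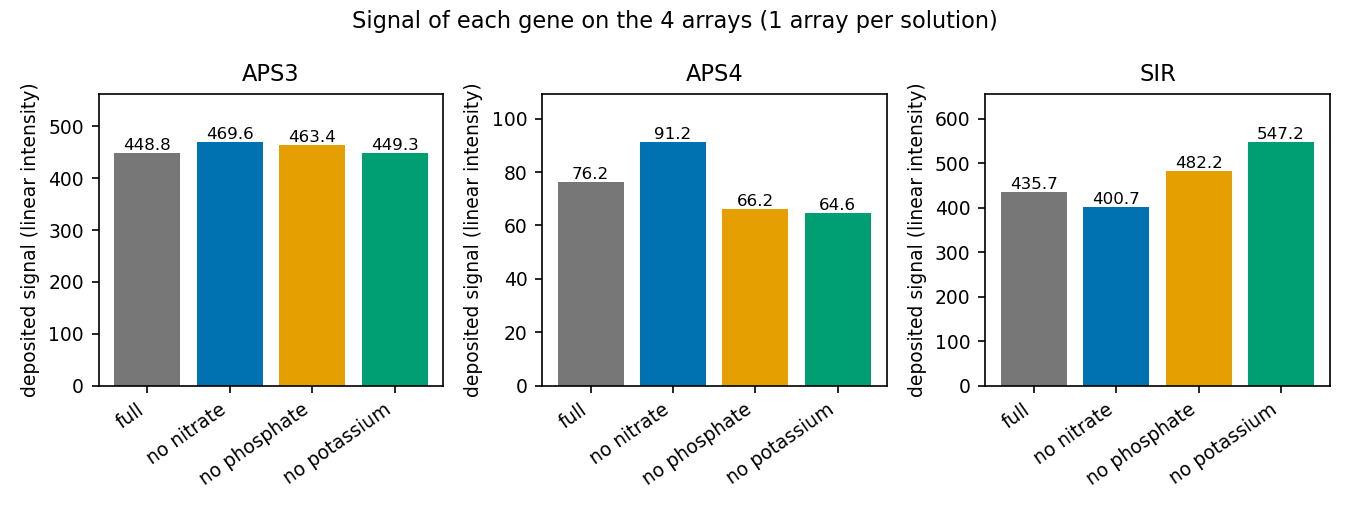
Deposited signal (linear intensity, bars from 0) of APS3, APS4 and SIR on the full-nutrient array and on the arrays without nitrate, phosphate or potassium, with 1 array per bar and no error bar. APS3 stays between 448.8 and 469.6, APS4 is highest without nitrate (91.2) and SIR is highest without potassium (547.2); the panels have separate scales because signals of different probe sets are not comparable.

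The names of all 3 probe sets end in s_at, the manufacturer's mark for probes that can match more than 1 transcript. The annotation assigns each of them to 1 gene, but no single-gene probe set was named for the related ATP sulphurylases APS1 and APS2, so a contribution of family members to the APS3 and APS4 signals was not tested. Endings of this kind occur on 1423 of the 8247 probe sets.

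The comparison of nitrate removal with the full solution asks which transcripts follow the loss of nitrate, here together with the largest addition of sulphate. The signal was 1.05-fold higher for APS3, 1.20-fold higher for APS4 and 1.09-fold lower for SIR. None of the 3 reached 2-fold, where 0.994% of all probe sets did. Of probe sets with a mean signal within 1.5-fold of a member's, 2.42% to 2.55% did. The log2 ratios were 0.065, 0.26 and -0.12, each within the same-gene scatter of 0.27. With the mean of the other 3 arrays as the reference the APS4 ratio was 0.41 and that of SIR -0.28. No same-gene scatter was computed for that reference. The median of the 3 ratios to the full solution was 0.065, against 0.026 over all probe sets above the floor on both arrays. Among 1114 probe sets with a mean signal within 1.5-fold of that of APS4, the interquartile range of the ratios ran from -0.17 to 0.26. The APS4 ratio lay just outside its upper end.

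For phosphate removal, which came with the small addition of potassium sulphate, the signal was 1.03-fold higher for APS3, 1.15-fold lower for APS4 and 1.11-fold higher for SIR. None of the 3 reached 2-fold, against 2.57% of all probe sets and 5.10% to 6.28% of those of like signal. The log2 ratios were 0.046, -0.20 and 0.15, all inside the scatter of 0.24 between probe sets of the same gene. Each lay within the interquartile range of the ratios of probe sets of like signal, which ran from -0.33 to 0.24 around APS3, from -0.27 to 0.27 around APS4 and from -0.33 to 0.23 around SIR.

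Potassium removal, with no sulphate added, left APS3 at 1.00 times its full-nutrient signal, APS4 1.18-fold lower and SIR 1.26-fold higher. Again none of the 3 reached 2-fold, against 5.36% of all probe sets and 11.3% of the 471 probe sets with a signal like that of SIR. The SIR log2 ratio of 0.33 was the one ratio to the full solution, of 9, that exceeded the same-gene scatter, here 0.30. It lay above the interquartile range of like-signal probe sets (-0.44 to 0.27) and well inside the range from their 5th to their 95th percentile (-1.02 to 1.15). On the same array the root marker BGLU21 was at 377.2 against at most 5.3 on the others, and the summed leaf markers were at 17456 against 25571 to 31914. The part of these shifts in the SIR value was not tested. The scatter of log2 ratios shows the same small displacements against all probe sets.

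**Figure D2:**
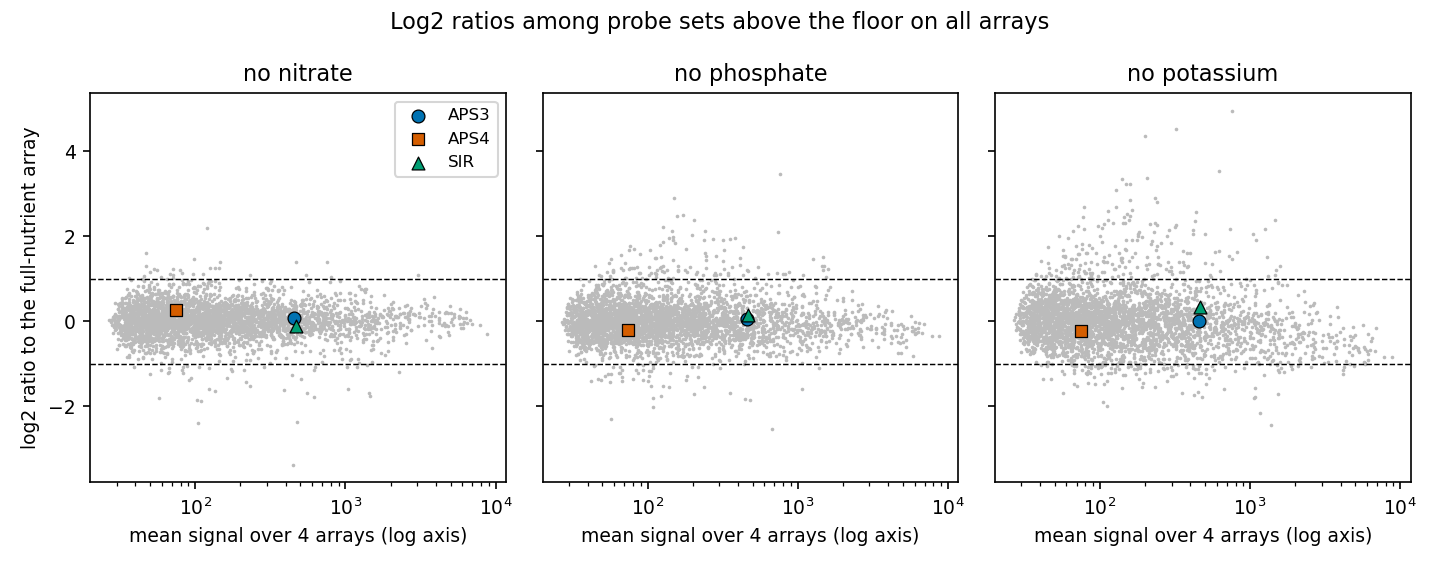
Log2 ratio to full nutrients for each array with a nutrient withheld (vertical axis) against the mean signal over the 4 arrays (horizontal log axis) for the 3545 probe sets above the floor on all arrays (grey), with APS3, APS4 and SIR marked. Dashed lines mark 2-fold; the coloured symbols stay between -0.24 and 0.33 in all 3 panels, inside the grey cloud.

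Comparing depleted arrays with each other leaves out the full-nutrient array and its masked cells. Between the nitrate and potassium arrays APS4 was 1.41-fold higher without nitrate and SIR 1.37-fold lower, while APS3 was 1.04-fold higher. If the base salts were kept, these solutions held 4.76 and 0.764 mM sulphate, the latter equal to the full solution. The log2 ratios of APS4 (0.50) and SIR (-0.45) exceeded the median same-gene scatter of 0.27 in opposite directions and lay inside its 90th percentile of 0.75. Neither reached 2-fold, against 6.75% of all probe sets, 13.7% of those with a signal like that of APS4 and 15.1% for SIR. Both lay outside the interquartile range of probe sets of like signal, which ran from -0.37 to 0.38 for APS4 and from -0.34 to 0.55 for SIR.

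Between the nitrate and phosphate arrays APS4 was 1.38-fold higher and SIR 1.20-fold lower, with log2 ratios of 0.46 and -0.27 against a same-gene scatter of 0.25, and 3.44% of all probe sets past 2-fold. APS3 was 1.01-fold higher. Of probe sets of like signal, 6.37% to 9.13% passed 2-fold there. The phosphate and potassium arrays differed little for all 3 genes. In that comparison SIR was 1.13-fold lower without phosphate, APS4 1.02-fold higher and APS3 1.03-fold higher, each inside the scatter of 0.24. Past 2-fold were 3.26% of all probe sets and 5.72% to 6.64% of those of like signal. Over the 6 comparisons, 12 of the 18 ratios lay within the interquartile range of like-signal probe sets and all 18 between their 5th and 95th percentiles. These comparisons share arrays, so their ratios are not separate observations.

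Read against the sulphate salts, the genes did not share an order. APS3 was higher on both arrays with added sulphate than on both arrays without, but by a mean of 0.055 on the log2 scale, or 1.04-fold. Of the 3545 probe sets above the floor on all arrays, 13.7% were likewise higher on both arrays with added sulphate. This order of APS3 (nitrate above phosphate, both above the others) was shared by 8.32% of the 3545 probe sets above the floor on all arrays, and its steps were smaller than the same-gene scatter and changed sign with the scaling, the nitrate to phosphate ratio being -0.013 with quantile normalization, -0.037 with median centring and -0.070 with loess centring, which also turned the nitrate to potassium ratio (-0.039).

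For APS4 the arrays with and without added sulphate alternated in order of signal, the nitrate array above full nutrients and the phosphate array between full nutrients and potassium. The mean of the arrays with added sulphate was 0.15 higher on the log2 scale, less than the 0.46 between the nitrate and phosphate arrays. SIR gave a mean difference of -0.15, where the potassium and full-nutrient arrays, both without added sulphate, already differed by 0.33. Over all probe sets above the floor on all arrays the same difference had a median of 0.012 and ran from -0.48 to 0.52 between the 5th and 95th percentiles. Added sulphate and the nutrient withheld cannot be told apart with 1 array per solution, and calcium or potassium was added with the sulphate.

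**Figure D3:**
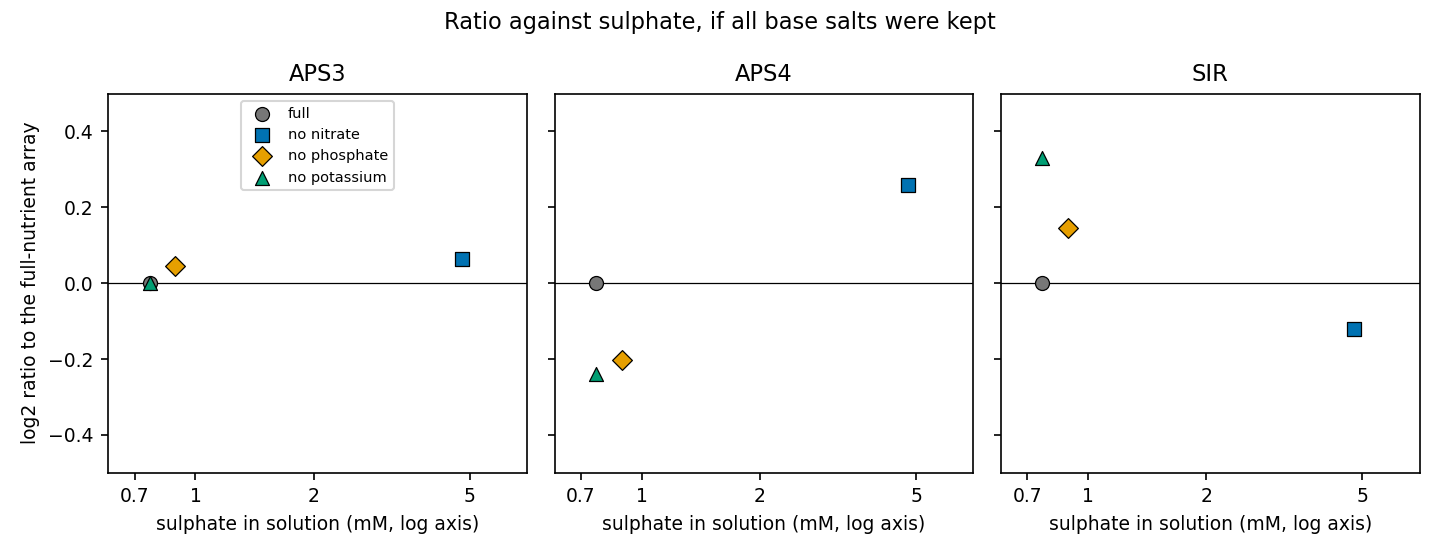
Log2 ratio to the full-nutrient array (vertical axis) against the sulphate concentration of the solution in mM (horizontal log axis), computed from the labels on the assumption that all base salts were kept, with 1 point per array for APS3, APS4 and SIR. The nitrate-free solution at 4.76 mM gave 0.065 for APS3, 0.26 for APS4 and -0.12 for SIR, and the full and potassium-free solutions, both at 0.764 mM, were 0.33 apart for SIR.

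APS4 and SIR had opposite orders across the arrays. The APS4 order, from nitrate through full nutrients and phosphate down to potassium, was held by 11.5% of the 3545 probe sets, and the reverse order of SIR by 7.93%, so neither order was rare. The log2 ratio of APS4 minus that of SIR was 0.38 for nitrate, -0.35 for phosphate and -0.57 for potassium against the full solution, in each case more than the median same-gene scatter and less than its 90th percentile (0.50, 0.56 and 0.57). Between nitrate and potassium, the ends of both orders, it was 0.95, above the 90th percentile of 0.75. Between nitrate and phosphate it was 0.73, above 0.63, and between phosphate and potassium 0.22, within the median scatter of 0.24. That scatter is between probe sets of the same gene. Differences between unrelated genes of like signal were not computed, so how unusual these values are was not tested. In the comparisons with the full solution APS3 lay between the other two.

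Among 1424 single-gene probe sets above the floor on all arrays, likeness was measured as the distance between the 3 log2 ratios to the full solution. Closest to SIR were AT1G23040 (distance 0.074), SAPX, the gene of the stromal ascorbate peroxidase of chloroplasts (0.082), and AT2G45300 (0.10). The SAPX signals were 91.5 with full nutrients, 86.0 without nitrate, 106.7 without phosphate and 115.3 without potassium. This is the order of SIR, which a choice by nearest ratios favours. Closest to APS4 were DER2.1, a derlin gene (0.051), AT2G45810 (0.066) and DIM1A (0.098). Closest to APS3 were AT2G19790 (0.045), AT1G80640 (0.047) and AT2G42310 (0.053). Within a distance of 0.2 lay 98 of the 1424 probe sets for APS3, 31 for APS4 and 28 for SIR.

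The wider sulphur pathway was read through 10 gene lists. Beyond the 3 members they hold 104 genes, of which 7 were named by a single-gene probe set. No sulphate transporter, APS reductase, cysteine synthesis, siroheme, ferredoxin or sulpholipid gene of the lists was among them, so the steps on either side of SIR and before APS3 and APS4 were not analysed here. Against the full solution, 1 of the 7 (SAL2) passed 2-fold without nitrate, none without phosphate and 3 (BGLU28, GR1 and SAL2) without potassium, where 0.994%, 2.57% and 5.36% of all probe sets passed. Their median log2 ratios were 0.072, -0.017 and 0.17.

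Of 11 listed sulphur-starvation markers, 1 had a single-gene probe set. It was BGLU28, a beta-glucosidase gene whose transcript is known to accumulate in sulphur-deficient plants. Its signals were 40.8 with full nutrients, 3.4 without nitrate, 77.4 without phosphate and 633.8 without potassium. The order of the arrays was that of SIR, with a far wider range. Among the 3545 probe sets above the floor on all arrays, 7.93% had this order. BGLU28 was 15.5-fold higher without potassium, or 7.53-fold with a pseudocount of 0.5 times the trimmed mean in place of the floor, and 1.90-fold higher without phosphate. The shifts of the root and leaf markers on the potassium array stand beside this value and that of GR1 too, and their part was not tested. Without nitrate it lay below the floor, at least 1.63-fold lower than with full nutrients (at least 4.07-fold with a floor of 0.1 times the trimmed mean, and no fold at 0.5 times, where both signals lie at the floor) and at least 25.3-fold lower than without potassium. The nitrate array is that of the solution with most sulphate, and the full and potassium arrays, with equal sulphate if the base salts were kept, were 15.5-fold apart. The part of sulphate in the BGLU28 values was not tested.

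SAL2 belongs to a phosphatase family that includes SAL1, which removes the adenosine bisphosphate left by sulphation reactions. Its signals were 194.3 with full nutrients, 36.8 without nitrate, 135.3 without phosphate and 52.2 without potassium. It was 5.28-fold lower without nitrate and 3.72-fold lower without potassium (2.81- and 2.39-fold with the pseudocount), and 1.44-fold lower without phosphate. The solution without nitrate had the largest sulphate addition and that without potassium had none. The part of sulphate in the SAL2 values was not tested.

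GR1 encodes a glutathione reductase, which restores reduced glutathione from its disulphide. It had signals of 260.0, 285.9, 309.4 and 578.5 in the same order of solutions, and it was 2.22-fold higher without potassium. GR, the gene of the organelle form, was near or below the floor, at 27.6, 43.8, 23.4 and 18.2. CBL, cystathionine beta-lyase of methionine synthesis, had signals of 185.2, 217.0, 139.1 and 147.6. Like APS4 it was highest without nitrate and below the full solution on the other arrays, with log2 ratios of 0.23, -0.41 and -0.33.

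MMT, the methionine S-methyltransferase gene, had signals of 110.3, 107.4, 112.5 and 124.9, also in the order of SIR. UGT74B1, a glucosyltransferase gene of glucosinolate synthesis, had signals of 177.4, 186.5, 175.3 and 199.1. Both stayed within 1.13-fold of the full solution on every array. The plot of sulphur-related genes shows SAL2, GR1 and BGLU28 past the 2-fold lines and the others between them.

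**Figure D4:**
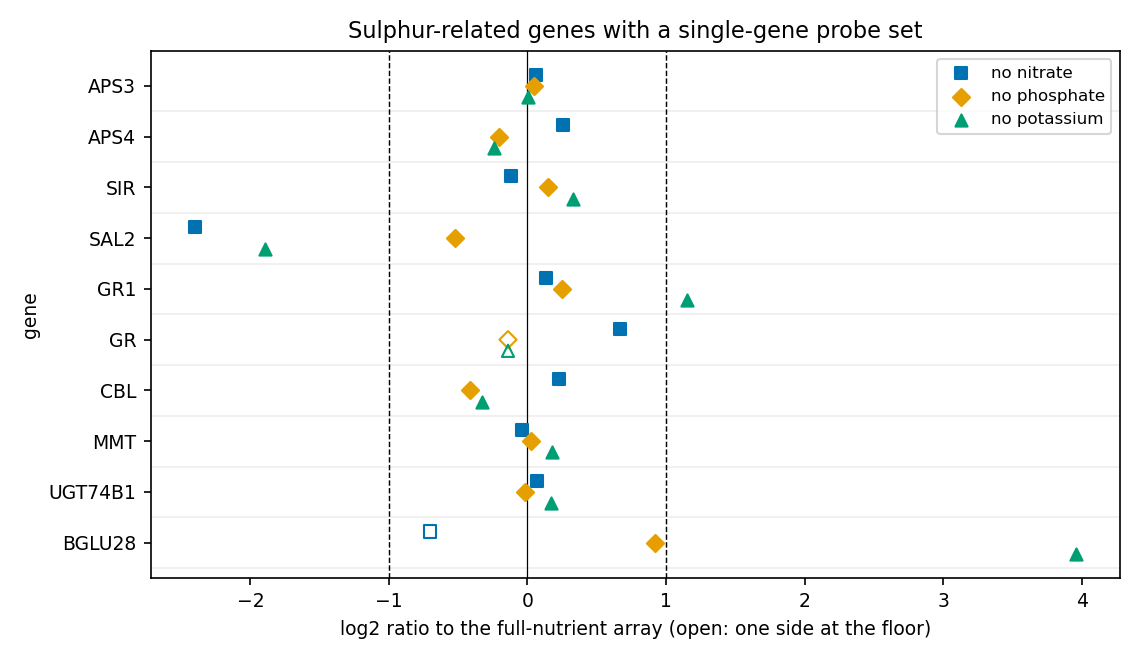
Log2 ratio to the full-nutrient array (horizontal axis) of APS3, APS4, SIR and the 7 other sulphur-related genes with a single-gene probe set, with squares for nitrate, diamonds for phosphate and triangles for potassium removal. Open symbols are ratios with a side at the floor, dashed lines mark 2-fold, and BGLU28 without potassium reaches 3.96 while APS3, APS4 and SIR stay between -0.24 and 0.33.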

How the data were processed

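The deposited file holds intensity values on a linear scale, as the authors computed them from single-colour Affymetrix arrays of biotin-labelled RNA (per the labels). The sources used here do not give the expression algorithm. The mean after trimming 2% at each end was 100.146 to 100.174 on the 4 arrays, so the deposited intensities had been scaled. Of 8297 probe sets, 50 controls were set aside. Genes were named through the platform annotation and the TAIR10.1 gene table; no coordinates or sequences are given, and the protein and promoter features planned were not analysed here. Groups followed the source names; for the phosphate array the title's letters differ and the written treatment decided.

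Here, each array was brought to the same trimmed mean (T = 100.16), floored at 0.25 T (25.04) and converted to log2. A ratio was counted from 2-fold, and a ratio with either signal at the floor is given as a bound. With 1 array per solution no test or p-value was possible, and the number of arrays limits the precision. Like-signal probe sets had a mean signal within 1.5-fold of a member's. Named were the members, the measured genes of the sulphur lists and the 3 nearest profiles per member. The members and lists were chosen with earlier results of these data known. Other floors, a pseudocount, quantile, loess and median centring, a 1.5-fold limit and another reference were tried. The script was tested on simulated data. Python 3.11.15, numpy 2.4.6, pandas 2.3.3 and statsmodels 0.14.6 were used.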

Additional observations from a re-analysis of the deposited data

How the results depend on the processing

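APS3, APS4 and SIR had 135 recomputed ratios. These used the 6 other scalings and floors, single probe sets, or the mean of the other 3 arrays as the reference. Each stayed under 2-fold and differed from the reported value by less than the same-gene scatter of the reported comparison. None of 45 turned sign for APS4 or for SIR, and 6 of 45 did for APS3. The 135 and the 45 per gene include settings that could not change a value. Each member has 1 probe set, so the single probe set repeats the reported ratio. The member signals, at lowest 64.6, lay above the floors of 0.1 T and 0.5 T, which therefore left them as they were. SIR without potassium ranged from 0.30 to 0.42 and APS4 without nitrate from 0.16 to 0.26 against the full solution. With the other 3 arrays as the reference, APS4 without nitrate was 0.41 and SIR without nitrate -0.28, over 1.5 times the reported 0.26 and -0.12. In size both passed the same-gene scatter of 0.27 for nitrate to full, which the reported values did not. No scatter was computed for the other reference. SIR without phosphate was 0.077 in place of 0.15. No paired analysis was possible because each solution has 1 array. Counts over all probe sets depended on low signals. In the order nitrate, phosphate and potassium to full, then nitrate to potassium, phosphate to potassium and nitrate to phosphate, the counts past 2-fold were 82, 212, 442, 557, 269 and 284. With a pseudocount of 0.5 T they were 25, 81, 219, 268, 114 and 136, and with a 1.5-fold limit 430, 703, 1181, 1360, 857 and 820. Lowering the floor to 0.1 T gave 198, 361, 670, 428 and 428, nitrate to potassium staying within 1.5 times, and with 0.5 T the nitrate count was 53. Of the 7 other sulphur genes, the number past the limit to full without nitrate was 1, or 2 at the floor of 0.1 T and 3 at the 1.5-fold limit, and without phosphate 0, or 1 with a 1.5-fold limit. It was 2 for nitrate to potassium and for phosphate to potassium, and for both 1 with a pseudocount and 3 at the 1.5-fold limit. At the floor of 0.1 T it was 3 for nitrate to potassium. For nitrate to phosphate it was 2, or 1 at the floor of 0.5 T and 4 at the 1.5-fold limit. The fewer counts with a higher floor or pseudocount follow from their construction, which shrinks ratios of dim probe sets. Signal over background limits APS4 most, the dimmest member.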
